A study of Homo sapiens with 14 samples.

Results

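The 6 libraries of MDA-MB-231 cells treated with RBI2 were compared with the 6 libraries treated with CX-5461, with the labelled treatment time as an additive term. These are 12 of the 14 libraries of the series. The libraries were chosen by their labels. All 12 came from one established human breast cancer cell line and received 5 µM of a compound, with 2 replicates for each compound at each of the labels 10, 30 and 120 min. The other 2 libraries are controls, which the labels give no compound. The study's text calls them untreated in one place and vehicle-treated (DMSO) in another, so whether they received the vehicle is not settled here. They were left out of the main test. The labels do not say whether replicates were separate cultures, so the p-values measure the spread between these samples, which may be technical. The deposited files carry time codes in their names that differ from the sample labels for the treated libraries of both compounds, so a label is used here as the name of a group of 4 libraries and not as an order in time. The additive comparison needs only that libraries sharing a label belong together.

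Ribosomes are assembled in the nucleolus from rRNA, made by RNA polymerase I (Pol I), and from ribosomal proteins. CX-5461 inhibits transcription by Pol I, and it also binds G-quadruplex DNA and traps topoisomerase II. RBI2 is known here by its code name only, as a compound that lowers pre-rRNA. The libraries were made from poly(A) RNA. Despite this selection, the study reported more rRNA in the RBI2 libraries than in the control or CX-5461 libraries. Whether other RNAs that usually lack a poly(A) tail were also recovered more with RBI2 was not tested. The authors removed reads of the rDNA repeat before quantification, so the comparison is of RNAs made by RNA polymerase II for the most part. The question it addresses is which mRNAs and long noncoding RNAs differ between cells given one or the other of these inhibitors of ribosome synthesis.

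The level of a gene is given in CPM (read counts scaled to a common library size) after TMM scaling, and a difference is RBI2 minus CX-5461 on the log2 scale with its standard error (SE). A gene differed where edgeR's quasi-likelihood test gave a Benjamini-Hochberg adjusted p under 0.05 over all 15442 genes tested. RBI2 libraries were higher for 1052 genes (6.81% of those tested) and CX-5461 libraries for 301 genes (1.95%), which makes 1353 genes in all (8.76%). The differences were small for the most part. The median was 0.40 among genes higher with RBI2 and -0.25 among genes higher with CX-5461, and only 134 genes (0.868%) and 15 genes (0.0971%) reached a log2 difference of 1. The split of 77.8% higher with RBI2 was 42.8% with an offset for GC content and transcript length, 62.1% with DESeq2, 58.1% without a filter on low counts and 67.0% with an offset for average transcript length. It was 89.7% without the time term, 88.7% without the label 10 min, and 60.5% without CX-5461 30 min replicate 2.

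The direction was the same at all 3 labels for 1334 of the 1353 genes, of which 1042 (6.75% of the genes tested) were higher with RBI2 and 292 (1.89%) with CX-5461. One sign at all 3 labels was found for 36.6% of all genes tested. The stricter pattern, in which both libraries of one compound lay above both of the other at every label, was found for 967 genes (6.26%) with RBI2 higher and 489 genes (3.17%) with CX-5461 higher. It held together with the adjusted p for 752 genes (4.87%) and 214 genes (1.39%). Single libraries carried much of the count. Without RBI2 10 min replicate 2, 448 genes were higher with RBI2 and 83 with CX-5461, and without CX-5461 120 min replicate 1 these were 511 and 78. The count of genes higher with RBI2 also fell by over 1.5 times without CX-5461 10 min replicate 2 (683), CX-5461 30 min replicate 1 (643), RBI2 30 min replicate 1 (675), RBI2 120 min replicate 1 (616) and RBI2 120 min replicate 2 (606). The count of genes higher with CX-5461 rose to 631 without CX-5461 30 min replicate 2. It fell to between 101 and 190 without any one of CX-5461 10 min replicate 1 (146), CX-5461 10 min replicate 2 (162), CX-5461 30 min replicate 1 (180), CX-5461 120 min replicate 2 (190), RBI2 30 min replicate 1 (121), RBI2 120 min replicate 1 (120) and RBI2 120 min replicate 2 (101).

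Library totals lay between 14112299 and 24849354 estimated reads. The mean share of reads from the mitochondrial genome was 9.23 ± 1.14% with RBI2 and 8.63 ± 0.272% with CX-5461 (SD, n = 6), a difference that an exact permutation test within labels did not separate from the spread (two-sided p = 0.241, where 0.00926 is the smallest it allows). The control libraries held 9.55% and 20.6%, so levels in control replicate 2 rest on a smaller share of nuclear reads. The mesenchymal markers VIM, CD44 and AXL of this line were high in every treated library (VIM at 2745 CPM or more), the oestrogen receptor gene ESR1 and the epithelial cadherin gene CDH1 lay under 0.3 CPM, and markers of blood, endothelial, liver and erythroid cells were at most 0.507 CPM. EPCAM, listed as low or absent in this line, lay between 9.28 and 14.5 CPM.

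Of the 28 leading genes, 4 hold a microRNA hairpin, MIR23AHG and MIR222HG (higher with RBI2) and GCH1 and CCDC186 (higher with CX-5461). The first pair was singled out after its values were seen. MIR23AHG (GRCh38, chr19:13823880-13842928, minus strand) is a long noncoding RNA from which the miR-23a, miR-27a and miR-24-2 hairpins are cut. MIR222HG (chrX:45745210-45770274, minus strand) holds the hairpins of miR-221 and miR-222. The mature microRNAs were not measured in these poly(A) libraries. Their sequences are shown to identify the products of these hosts, as given by RefSeq (GRCh38.p14), with the seed, bases 2 to 8, in capitals. The arms of miR-221 and miR-222 shown share one seed, and the 3 others have seeds of their own.
hsa-miR-23a-3p (chr19:13836595-13836615): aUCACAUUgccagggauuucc
hsa-miR-27a-3p (chr19:13836447-13836467): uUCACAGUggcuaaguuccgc
hsa-miR-24-3p (chr19:13836289-13836310): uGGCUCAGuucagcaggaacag
hsa-miR-221-3p (chrX:45746180-45746202): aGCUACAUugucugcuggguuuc
hsa-miR-222-3p (chrX:45747036-45747056): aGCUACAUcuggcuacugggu

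With RBI2, MIR23AHG measured 31.5 and 37.6 CPM at label 10 min, 33.9 and 31.3 CPM at 30 min and 38.6 and 34.4 CPM at 120 min. With CX-5461 it measured 9.66 and 10.6 CPM at label 10 min, 18.4 and 19.2 CPM at 30 min and 12 and 10.3 CPM at 120 min. The groups did not overlap at any label, and all 6 RBI2 libraries lay above all 6 CX-5461 libraries. The difference was 1.42 ± 0.15 (adjusted p = 0.00088), and it varied by label (1.77, 0.79 and 1.71 at 10, 30 and 120 min, interaction adjusted p = 0.0082). The control libraries read 25.8 and 12 CPM and so differed from each other by more than replicates of either compound did at any label.

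MIR222HG measured 19.6 and 19.3 CPM at label 10 min, 19.2 and 17.4 CPM at 30 min and 16.3 and 15.1 CPM at 120 min with RBI2. With CX-5461 it measured 3.26 and 3.65 CPM at label 10 min, 13.9 and 13.6 CPM at 30 min and 10.4 and 9.38 CPM at 120 min. The RBI2 libraries were alike over the labels, while the CX-5461 libraries were lowest at label 10 min. The difference over all labels was 1.10 ± 0.26 (adjusted p = 0.026) and that at each label 2.49, 0.42 and 0.66 (interaction adjusted p = 5.6e-05). Both control libraries, at 23.4 and 34.2 CPM, lay above every treated library.

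FOXK1, a forkhead transcription factor that represses autophagy genes, was also higher with RBI2. FOXK1 measured 99.9 and 152 CPM at label 10 min, 143 and 154 CPM at 30 min and 208 and 197 CPM at 120 min with RBI2. It measured 69.4 and 65.4 CPM at label 10 min, 71.7 and 67 CPM at 30 min and 76.9 and 91.8 CPM at 120 min with CX-5461, close to 67.9 and 60.9 CPM in the control. No RBI2 library reached down to the highest CX-5461 library. The difference was 1.09 ± 0.10 (adjusted p = 0.00066) and lay at 0.90, 1.10 and 1.27 at the 3 labels.

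POM121, which anchors the nuclear pore in the membrane and has a near-identical copy that makes its reads uncertain, measured 93 and 152 CPM at label 10 min, 111 and 97.3 CPM at 30 min and 184 and 142 CPM at 120 min with RBI2. Its levels with CX-5461 were 41 and 53.5 CPM at label 10 min, 55.9 and 48.7 CPM at 30 min and 72.9 and 96.8 CPM at 120 min. The compounds did not overlap at any label, although the highest CX-5461 library at 120 min lay above the lowest RBI2 library at 10 min. The difference was 1.10 ± 0.14 (adjusted p = 0.0012). IRGQ, of the immunity-related GTPase family, had means of 33 ± 11.7 CPM with RBI2 and 14.7 ± 2.70 CPM with CX-5461 (SD, n = 6), a difference of 1.12 ± 0.14 (adjusted p = 0.0012).

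MUC4, a membrane mucin, differed by 1.24 ± 0.19, with means of 10.1 ± 5.33 and 4.10 ± 1.31 CPM (adjusted p = 0.0034), and by 0.49 (0.101) under the offset for average transcript length. The osmotic stress factor NFAT5 differed by 0.95 ± 0.16 (adjusted p = 0.0044), the ubiquitin ligase gene TTC3 by 0.99 ± 0.23 (0.024) and the zinc finger gene ZNF543 by 1.03 ± 0.12 (0.0011). NPIPB4 (1.04 ± 0.15, adjusted p = 0.0024) and NPIPB3 (1.01 ± 0.15, 0.0029) belong to a family of near-identical copies on chromosome 16, and reads may be split among them. The same holds for RN7SL1 and RN7SL2, the copies of the 7SL RNA of the signal recognition particle, at 1.49 ± 0.30 and 1.87 ± 0.33 (adjusted p = 0.013 and 0.006). Neither is an mRNA, and whether these values reflect RNA level or recovery by poly(A) selection was not tested.

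RN7SL2 was lowest with CX-5461 (6.16 and 6.07 CPM) and highest with RBI2 (55 and 65.4 CPM) at label 120 min. It read 14.2 and 4.08 CPM in the control. The read-through transcript gene NDUFC2-KCTD14 had the largest value, 3.28 ± 0.84 (adjusted p = 0.033), but overlaps both of its parent genes. It stood at 26.4 and 4.06 CPM with RBI2 and 0.110 and 3.99 CPM with CX-5461 at label 10 min, at 0 in both CX-5461 libraries at 30 min, and under 1 CPM in every library at 120 min. Its fitted difference is no measure of a fold where a group stands at 0.

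**Figure D1:**
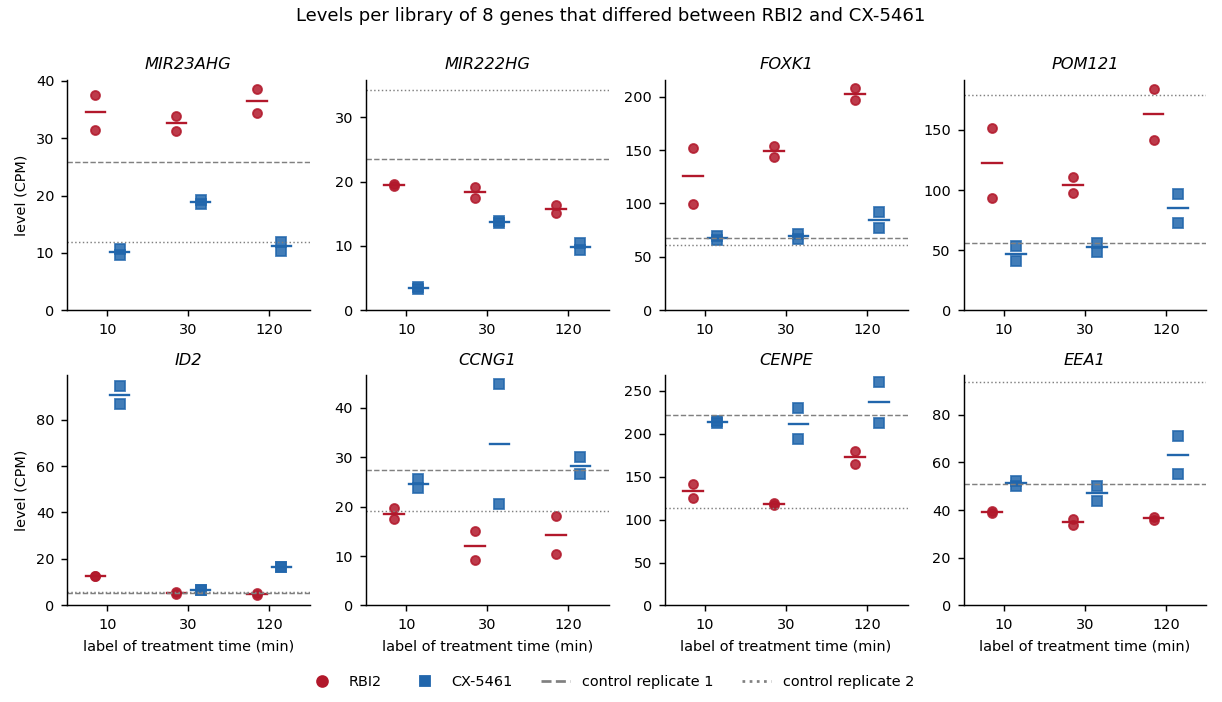
Levels in CPM (linear axes from 0) in each library against the label of treatment time, for 4 genes higher with RBI2 (upper row) and 4 higher with CX-5461 (lower row). Points are libraries, short bars the mean of 2 replicates, and grey lines the 2 control libraries. In every panel both libraries of one compound lie above both of the other at all 3 labels, and ID2 with CX-5461 stands apart at label 10 min.

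Genes higher with CX-5461 were led by ID2, an inhibitor of helix-loop-helix transcription factors and a target of BMP signalling. ID2 (chr2:8678845-8684461, plus strand) measured 94.5 and 86.6 CPM at label 10 min, 6.85 and 6.62 CPM at 30 min and 16.8 and 16.7 CPM at 120 min with CX-5461. With RBI2 it measured 12.8 and 12.7 CPM at label 10 min, 4.89 and 5.76 CPM at 30 min and 4.69 and 5.47 CPM at 120 min. The CX-5461 libraries at label 10 min held more than any other library, and those at 30 min lay just above the RBI2 libraries. The difference was -1.80 ± 0.30 (adjusted p = 0.0049), from -2.82 at 10 min to -0.35 at 30 min (interaction adjusted p = 3.2e-05). The control libraries read 5.43 and 5.80 CPM.

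CCNG1, the p53 target that encodes cyclin G1, measured 23.8 and 25.5 CPM at label 10 min, 20.6 and 44.8 CPM at 30 min and 30.1 and 26.6 CPM at 120 min with CX-5461. It measured 19.7 and 17.5 CPM at label 10 min, 15 and 9.25 CPM at 30 min and 18 and 10.3 CPM at 120 min with RBI2. Replicates differed by over 2-fold with CX-5461 at 30 min. The groups did not overlap at any label, which the naming rule requires of every leading gene (-0.93 ± 0.22, adjusted p = 0.025). The call held in 19 of 26 alternatives, and in 8 of the 12 that left out 1 library.

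Both large kinetochore genes of the mitotic list lay lower with RBI2 at every label. CENPE, a kinesin that moves chromosomes to the spindle centre, measured 142 and 126 CPM at label 10 min, 117 and 119 CPM at 30 min and 165 and 180.5 CPM at 120 min with RBI2. With CX-5461 it measured 213 and 215 CPM at label 10 min, 229.7 and 194 CPM at 30 min and 213 and 261 CPM at 120 min. All 6 CX-5461 libraries lay above all 6 RBI2 libraries (-0.66 ± 0.08, adjusted p = 0.00093), and the control libraries were as far apart, at 222 and 114 CPM. CENPF had means of 305 ± 34.5 CPM with RBI2 and 427 ± 89 CPM with CX-5461 (-0.48 ± 0.08, adjusted p = 0.0046), and its CX-5461 120 min replicate 2 stood above the other 5 libraries. With the offset for average transcript length CENPF stood at -0.09 (adjusted p = 0.337) and CENPE at -0.33 (0.106).

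EEA1, which tethers early endosomes, measured 38.9 and 39.6 CPM at label 10 min, 33.9 and 36.3 CPM at 30 min and 35.9 and 37.2 CPM at 120 min with RBI2. The CX-5461 libraries read 50.1 and 52.2 CPM at label 10 min, 50.2 and 43.8 CPM at 30 min and 55.3 and 71.3 CPM at 120 min, a difference of -0.53 ± 0.08 (adjusted p = 0.0035) without overlap. RYK, a Wnt receptor, differed by -0.99 ± 0.21 (adjusted p = 0.014), and by -0.55 (0.0813) under the offset for average transcript length. The kinase gene SLK differed by -0.44 ± 0.08 (adjusted p = 0.0071) and CCDC186, of dense-core vesicles, by -0.63 ± 0.10 (0.0042). DDIT4, an inhibitor of mTORC1 that rises in many stresses, differed by -0.46 ± 0.08 (0.0046), with 12.7 ± 2.17 CPM with RBI2 and 17.4 ± 1.46 CPM with CX-5461.

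GCH1, the rate-limiting enzyme of tetrahydrobiopterin synthesis, differed by -0.73 ± 0.18 (adjusted p = 0.027) and was highest with CX-5461 at label 10 min, at 13.3 and 13.3 CPM. CA2, a carbonic anhydrase, was also highest with CX-5461 at label 10 min, at 16.1 and 15 CPM (-0.50 ± 0.12, adjusted p = 0.029). The last 3 genes of this group are pseudogenes whose reads may come from their relatives. They were BTF3L4P2 (-0.70 ± 0.15, adjusted p = 0.015), HLA-J (-0.53 ± 0.12, 0.024) and MTCO1P12, a nuclear copy of a mitochondrial gene (-0.43 ± 0.07, 0.0048).

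**Figure D2:**
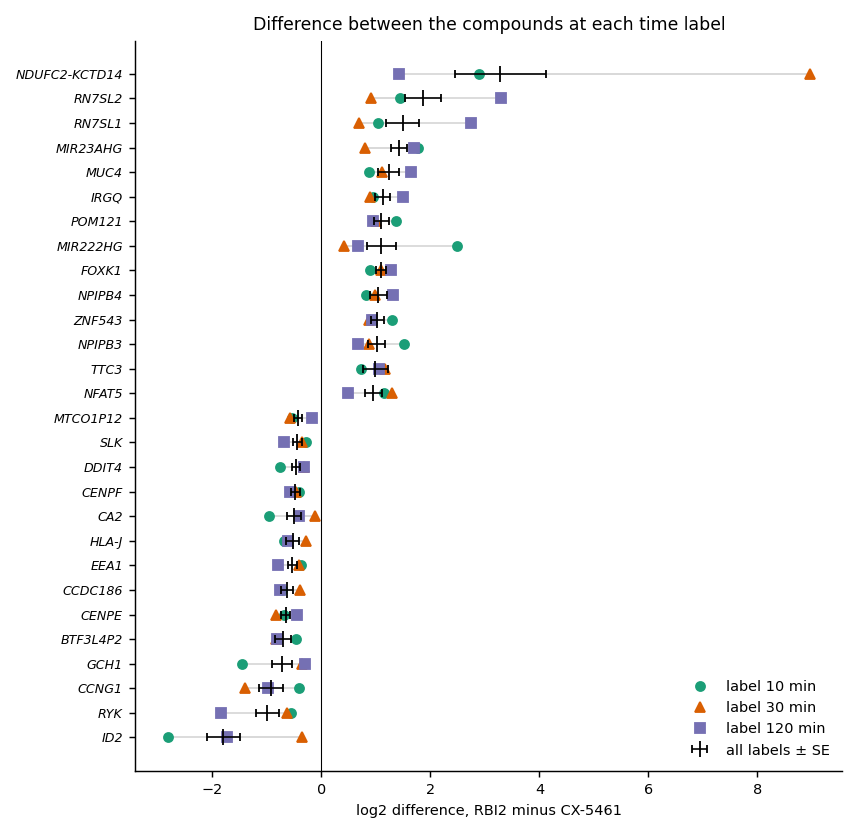
Log2 difference, RBI2 minus CX-5461, of the 28 genes with the largest differences by the naming rule, at each label (coloured points) and over all labels (black bar with SE). Genes on the right were higher with RBI2 and genes on the left with CX-5461. CENPF holds about the same difference at the 3 labels (-0.40, -0.46 and -0.58), while NDUFC2-KCTD14, ID2, MIR222HG and RN7SL2 spread widely.

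The 250 bases before the start site were searched in the RefSeq promoter table (GRCh38.p14), which held 10989 of the 15411 symbols tested, 698 of the genes higher with RBI2 and 232 of those higher with CX-5461. The letters searched, on both strands and with overlaps between motifs allowed, were TATAAA (the core promoter box), TGACGTCA (CRE), TGACTCA (AP-1), CCAAT (NF-Y), GGGCGG (SP1), CACGTG (E-box), CCGGAA (ETS), TTTGAA (CHR), GGAATG (TEAD) and GGCGCC (BMP element). Promoters of genes higher with CX-5461 held CCAAT in 45.7%, against 35.1% of all tested and 34.4% of those higher with RBI2. CACGTG stood in 14.7%, 8.77% and 10.6% of these groups in the same order, and TGACGTCA in 5.60%, 2.95% and 3.15%. The AP-1 letters were found in 3.02%, 2.70% and 2.29%. A match is a description of letters and not a bound site, and no test was run on the shares. Among leading genes higher with CX-5461, CCAAT or its reverse stood in the promoters of ID2, CCNG1, CCDC186, EEA1, CENPF and DDIT4. It was absent from those of RYK, CENPE and SLK. Among leading genes higher with RBI2, it stood in those of MIR222HG, ZNF543 and NPIPB3 and in no other that was found. The stretches given for NPIPB3, NPIPB4 and ID2 lie wholly inside the GENCODE span of the gene. Whether they act as promoters in these cells was not tested. Of the promoters of 3 leading genes, printed 5′ to 3′ from the gene's strand with every match to these motifs in capitals, those of ID2 and CENPF each held CCAAT or its reverse 3 times, and that of FOXK1 held none.
ID2 (chr2:8681806-8682055, plus strand): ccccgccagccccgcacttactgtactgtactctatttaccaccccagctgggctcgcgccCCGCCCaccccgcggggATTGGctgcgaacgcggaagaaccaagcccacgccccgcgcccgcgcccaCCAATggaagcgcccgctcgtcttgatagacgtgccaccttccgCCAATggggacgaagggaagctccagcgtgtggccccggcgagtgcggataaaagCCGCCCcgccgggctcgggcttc
CENPF (chr1:214602945-214603194, plus strand): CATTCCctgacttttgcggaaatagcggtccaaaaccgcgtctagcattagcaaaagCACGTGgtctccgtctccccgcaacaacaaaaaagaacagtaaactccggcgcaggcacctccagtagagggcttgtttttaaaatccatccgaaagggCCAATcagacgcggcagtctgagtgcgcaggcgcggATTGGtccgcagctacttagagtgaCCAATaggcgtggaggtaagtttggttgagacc
FOXK1 (chr7:4682045-4682294, plus strand): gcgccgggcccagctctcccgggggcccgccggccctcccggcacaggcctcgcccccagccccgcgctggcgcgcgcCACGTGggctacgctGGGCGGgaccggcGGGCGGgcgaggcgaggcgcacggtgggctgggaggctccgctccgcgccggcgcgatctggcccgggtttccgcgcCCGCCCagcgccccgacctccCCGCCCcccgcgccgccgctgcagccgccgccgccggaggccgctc

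Genes were then described by lists. A list's counts take members that passed the test with one sign at every label, and they are read against 6.75% of all genes for RBI2 and 1.89% for CX-5461. Counts under another rule have shares of their own, given here for RBI2 and then CX-5461 higher. These were 6.7% and 8.91% of all genes under the offset for GC content and length, 5.98% and 2.92% under that for average transcript length, 7.38% and 4.56% with DESeq2, and 15.9% and 11.3% at an unadjusted p under 0.05. The median difference over all genes was -0.00079. Names without values below were read off the lists after their values were seen.

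The chromatin list, of histone-modifying enzymes, bromodomain readers and remodellers, had 22 of 80 members higher with RBI2 and 2 higher with CX-5461, with a median of 0.15. Enrichment of chromatin modification was known from earlier work on these libraries, so the list is not independent evidence of its direction. KMT2D, the histone H3 lysine 4 methyltransferase, measured 48.8 and 85.8 CPM at label 10 min, 79.97 and 80.5 CPM at 30 min and 172 and 169 CPM at 120 min with RBI2. With CX-5461 it measured 39.8 and 49.9 CPM at label 10 min, 48.1 and 36.4 CPM at 30 min and 50.4 and 66.6 CPM at 120 min, and the groups overlapped at label 10 min only. The difference was 1.03 ± 0.17 (adjusted p = 0.0048).

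The acetyltransferase genes KAT6A and CREBBP differed by 0.55 ± 0.09 and 0.52 ± 0.09 (adjusted p = 0.0035 and 0.0047). CHD4, ARID1A, BRD2, KMT2E, NSD1 and SETD1A were also among the 22. The 2 members higher with CX-5461 were HDAC2 and KDM3A. The count of 22 was 8 without RBI2 10 min replicate 2, 11 without CX-5461 120 min replicate 1, 12 without RBI2 120 min replicate 2, 13 without RBI2 120 min replicate 1 and 14 without RBI2 30 min replicate 1. With the offset for GC content and length it was 14, beside 7 members higher with CX-5461 (6.7% and 8.91% of all genes). With that for average transcript length it was 16, beside 4 (5.98% and 2.92% of all genes). With all genes cut into 5 bins by transcript length, 16.6% of the longest were higher with RBI2. The list was not compared with genes of like length.

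Zinc finger genes with numbered names had 51 of 426 members higher with RBI2 and 1, ZNF181, higher with CX-5461, with a median of 0.11. ZNF460 stood at 4.23 ± 1.41 CPM with RBI2 and 1.48 ± 0.474 CPM with CX-5461 (1.51 ± 0.17, adjusted p = 0.00093). The low-level genes ZNF573 (1.41 ± 0.39, 0.043) and ZNF221 (1.08 ± 0.22, 0.013) followed. The median of the list was 0.29 at label 10 min, 0.04 at 30 min and 0.01 at 120 min. The count was 55 and 9 with the offset for GC content and length, 26 and 0 without RBI2 10 min replicate 2, 30 and 0 without CX-5461 120 min replicate 1, 31 and 0 without CX-5461 10 min replicate 2, and 33 and 0 without RBI2 120 min replicate 2.

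**Figure D3:**
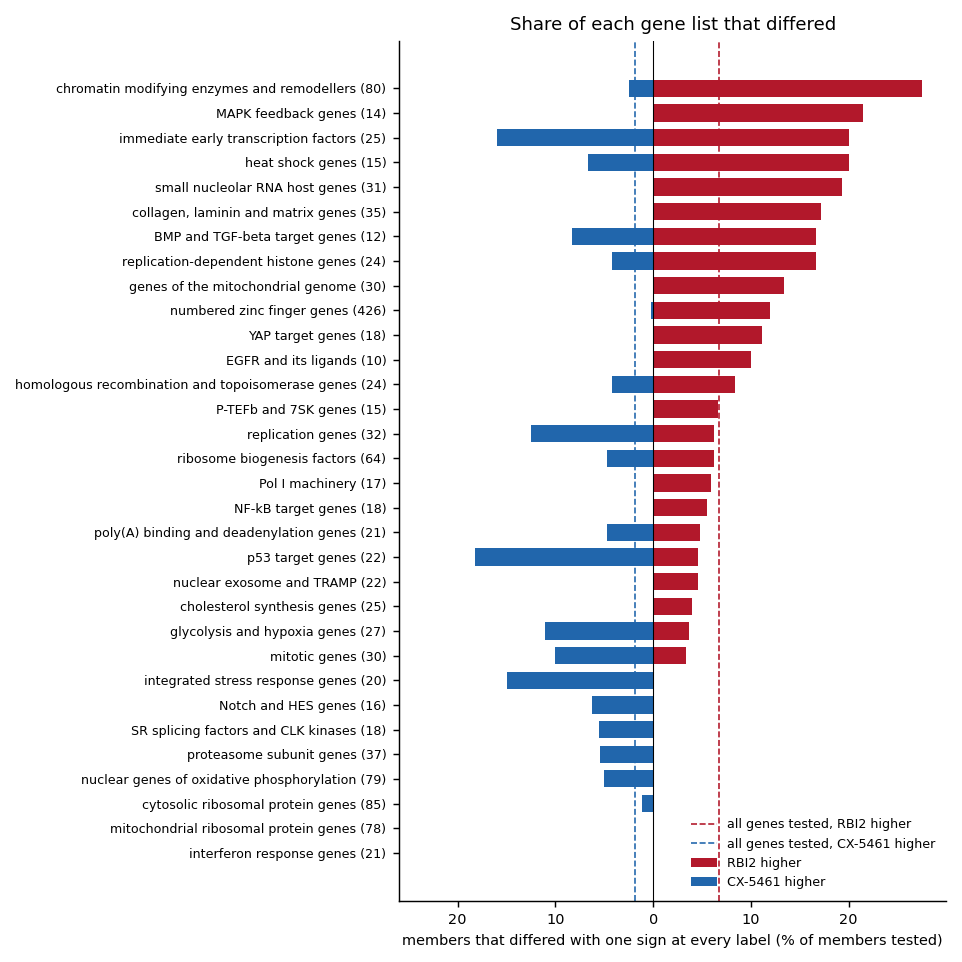
Share of the tested members of each gene list (number tested in brackets) that differed with one sign at every label, to the right for RBI2 higher and to the left for CX-5461 higher. Dashed lines mark the shares of all genes tested, 6.75% and 1.89%. Chromatin genes reach 22 of 80 on the right, and p53 target genes 4 of 22 on the left.

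Immediate early genes, for the most part transcription factors that answer growth signals within minutes, were called in both directions. Of 25 tested, 5 were higher with RBI2 (KLF6, IER2, JUN, FOSL1 and FOSL2) and 4 with CX-5461 (FOS, JUNB, ZFP36 and KLF4), and 16 had a difference that depended on the label, as had 13% of all genes. KLF6 measured 89.4 and 82.7 CPM at label 10 min, 173 and 162 CPM at 30 min and 183 and 173 CPM at 120 min with RBI2. Its levels with CX-5461 were 36.7 and 31.3 CPM at label 10 min, 137 and 137 CPM at 30 min and 114 and 119 CPM at 120 min. The difference was 0.73 ± 0.13 (adjusted p = 0.0071), and control libraries read 145 and 124 CPM. The AP-1 subunit gene JUN measured 98.6 and 105 CPM at label 10 min, 113 and 110.2 CPM at 30 min and 92.6 and 98.1 CPM at 120 min with RBI2. It measured 45.5 and 44 CPM at label 10 min, 101 and 102 CPM at 30 min and 78.1 and 76.5 CPM at 120 min with CX-5461 (0.53 ± 0.14, adjusted p = 0.034).

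FOS, the partner of JUN in AP-1, went the other way. It measured 10.2 and 9.33 CPM at label 10 min, 2.64 and 2.49 CPM at 30 min and 4.46 and 5.11 CPM at 120 min with CX-5461. It measured 3.69 and 3.81 CPM at label 10 min, 2.47 and 2.55 CPM at 30 min and 3.25 and 3.18 CPM at 120 min with RBI2, so the compounds overlapped at label 30 min (-0.72 ± 0.18, adjusted p = 0.029). IER2 differed by 1.5 at label 10 min and 0.02 at 30 min (0.68 ± 0.18 over all labels, adjusted p = 0.04). For JUN, IER2 and KLF6, CX-5461 libraries at label 10 min lay below both control libraries or, for IER2, within 1 CPM of the lower one. Under the offset for GC content and length 2 and 4 members passed, with IER2 at 0.60 (0.0591) and JUN at 0.44 (0.0602). Under that for average transcript length 6 and 2 passed, with FOS at -0.65 (0.0714). Over 26 alternatives the call held in 12 for JUN, in 11 for IER2 and in 14 for FOS. Counts of this list fell to 1 higher with RBI2 and 0 with CX-5461 without RBI2 10 min replicate 2, to 1 and 1 without CX-5461 10 min replicate 2, to 1 and 3 without CX-5461 30 min replicate 1 and to 2 and 0 without CX-5461 10 min replicate 1 or CX-5461 120 min replicate 1. They were 2 and 2 without RBI2 10 min replicate 1, 2 and 1 without RBI2 120 min replicate 1, 3 and 0 without RBI2 120 min replicate 2, 3 and 3 without RBI2 30 min replicate 1 and 4 and 1 without CX-5461 120 min replicate 2.

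Genes that damp or follow MAPK signalling had 3 of 14 members higher with RBI2. These were the phosphatase genes DUSP1 (0.56 ± 0.15, adjusted p = 0.039) and DUSP4 (0.28 ± 0.05, 0.0071) and the inhibitor SPRY4 (0.41 ± 0.10, 0.028). DUSP1 stood at 58.9 and 58.7 CPM with RBI2 and 23.9 and 25.7 CPM with CX-5461 at label 10 min, on either side of the control (36.4 and 32.3 CPM). Under the offset for GC content and length 0 of the 14 passed (DUSP1 0.49, adjusted p = 0.057, SPRY4 0.29, 0.0515, DUSP4 0.15, 0.121), and DUSP1 passed in 8 of 26 alternatives. The ligand genes HBEGF (0.34 ± 0.08, 0.021) and LIF (0.49 ± 0.10, 0.013), each the one member of its list that differed, were higher with RBI2. Under the offset for GC content and length, the list of HBEGF (EGFR and its ligands) had 2 members higher with RBI2 and 0 with CX-5461. The list of LIF (NF-kB targets) had 1 and 3. The YAP target list had AMOTL1 (0.58 ± 0.09, 0.0027) and AJUBA (0.30 ± 0.06, 0.0073) of 18 members higher with RBI2. The counts were 3 higher with RBI2 and 3 with CX-5461 under the offset for GC content and length, and 4 and 0 with DESeq2 or the offset for average transcript length.

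Of the BMP and TGF-beta targets, PMEPA1 (0.33 ± 0.06, 0.0093) and SMAD6 (0.49 ± 0.14, 0.044), both inhibitors of the pathway, were higher with RBI2, and ID2 of the same list was higher with CX-5461. SMAD6 passed in 3 of 25 alternatives and stood at 0.16 (0.708) with the offset for average transcript length. HES6, of the Notch and HES list, was higher with CX-5461 (-0.33 ± 0.09, 0.039), a call that held in 11 of 26 alternatives (-0.15, 0.424 under the offset for average transcript length).

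**Figure D4:**
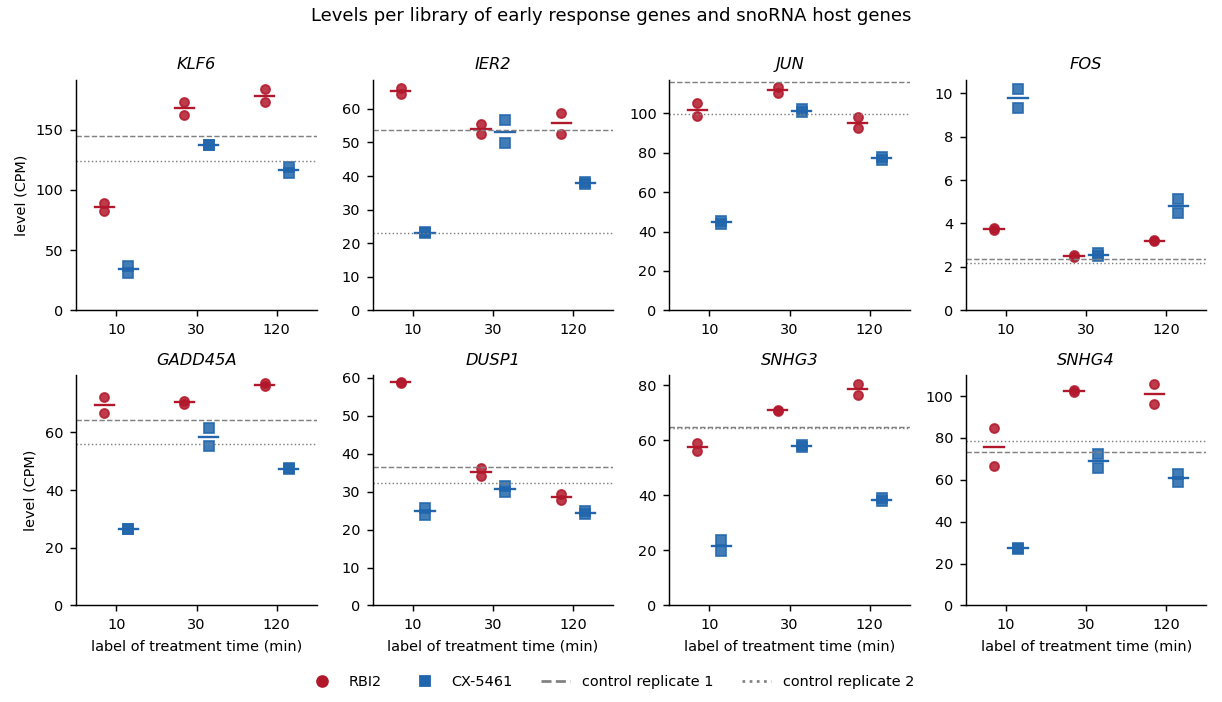
Levels in CPM (linear axes from 0) in each library against the label of treatment time, for 6 stress and early response genes and 2 host genes of small nucleolar RNAs. Points are libraries, short bars the mean of 2 replicates, and grey lines the 2 control libraries. In all 8 panels the log2 difference between the compounds is largest at label 10 min and smallest at label 30 min, and only FOS has CX-5461 above RBI2 at label 10 min.

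Among 22 p53 targets, 4 were higher with CX-5461 (CCNG1, FAS, PPM1D and CDKN1A) and 1, GADD45A, with RBI2. The death receptor gene FAS (-0.44 ± 0.12, 0.043) and the phosphatase gene PPM1D (-0.41 ± 0.11, 0.044) had low levels, under 22 CPM in each treated library. GADD45A, a growth arrest gene, measured 72.2 and 66.6 CPM at label 10 min, 70.9 and 69.8 CPM at 30 min and 77.2 and 75.9 CPM at 120 min with RBI2. The CX-5461 libraries read 26.5 and 26.4 CPM at label 10 min, 55.4 and 61.4 CPM at 30 min and 47.2 and 47.6 CPM at 120 min (0.77 ± 0.14, adjusted p = 0.0068). CX-5461 libraries lay below both control libraries (64.3 and 55.9 CPM) at labels 10 and 120 min. The count of 4 fell to 0 without CX-5461 120 min replicate 1 or RBI2 10 min replicate 2, to 1 without CX-5461 10 min replicate 1, CX-5461 10 min replicate 2, RBI2 10 min replicate 1, RBI2 30 min replicate 1 or RBI2 120 min replicate 2, and to 2 without CX-5461 30 min replicate 1, CX-5461 120 min replicate 2, RBI2 30 min replicate 2 or RBI2 120 min replicate 1.

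The integrated stress response had 3 of 20 members higher with CX-5461, which were DDIT4, the serine synthesis enzyme PSAT1 (-0.19 ± 0.04, 0.017) and CEBPG (-0.23 ± 0.06, 0.039). Of 15 heat shock genes, DNAJB1 (0.44 ± 0.08, 0.0086) and the near-identical pair HSPA1A (0.33 ± 0.07, 0.018) and HSPA1B (0.28 ± 0.05, 0.004) were higher with RBI2. The mitochondrial chaperonin HSPD1 was higher with CX-5461 (-0.19 ± 0.05, 0.04). None of 21 interferon response genes passed edgeR's test as fitted here. At an unadjusted p under 0.05, 5 were higher with CX-5461 and 0 with RBI2, beside 11.3% and 15.9% of all genes. Higher with CX-5461 were 3 under the offset for GC content and length, 2 under the offset for average transcript length or with DESeq2, and 0 to 2 with 1 library left out.

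Host genes of small nucleolar RNAs, which guide rRNA modification, had 6 of 31 members higher with RBI2. SNHG3 measured 56.3 and 59.2 CPM at label 10 min, 70.7 and 71.2 CPM at 30 min and 80.6 and 76.5 CPM at 120 min with RBI2. The CX-5461 libraries read 23.7 and 19.7 CPM at label 10 min, 58.2 and 57.7 CPM at 30 min and 37.9 and 39 CPM at 120 min, without overlap (0.90 ± 0.14, adjusted p = 0.0038). The others were SNHG4 (0.91 ± 0.13, 0.002), SNHG17 (0.75 ± 0.13, 0.0059), SNHG20 (0.55 ± 0.13, 0.028), SNHG14 and SNHG16. SNHG3, SNHG4 and SNHG20 overlap other genes. At label 30 min the median of the list was -0.14, beside 0.33 at 10 min and 0.24 at 120 min.

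Of the ribosome synthesis machinery, 5.88% of Pol I genes and 6.25% of biogenesis factors were higher with RBI2, and 0% and 4.69% with CX-5461. Of 17 Pol I genes, POLR1A, the largest Pol I subunit, was higher with RBI2, at 261 ± 45.3 CPM against 205 ± 26.4 CPM (0.34 ± 0.07, adjusted p = 0.01). POLR1A stood at 0.09 (adjusted p = 0.174) with the offset for GC content and length and at 0.17 (0.345) with that for average transcript length. Of 64 ribosome biogenesis factors, 4 were higher with RBI2, namely NOL9 (0.74 ± 0.09, 0.00093), GNL3L (0.52 ± 0.06, 0.0012), NAT10 (0.33 ± 0.07, 0.013) and TCOF1 (0.32 ± 0.07, 0.018), and 3 with CX-5461 (UTP18, UTP14A and SDAD1). These counts were 6 and 11 with the offset for GC content and length. Under that for average transcript length NAT10 stood at 0.04 (0.786) and TCOF1 at 0.31 (0.0985). Of the 64 differences, 42 were negative, with a median of -0.05 over the list. At an unadjusted p under 0.05, 5 of the 64 were higher with RBI2 and 18 with CX-5461, beside 15.9% and 11.3% of all genes. NOL9, a polynucleotide kinase of rRNA processing, measured 67.1 and 93.1 CPM at label 10 min, 88.2 and 84.2 CPM at 30 min and 105 and 107 CPM at 120 min with RBI2. With CX-5461 it stayed between 49.5 and 56.4 CPM, and the control read 55.6 and 56.1 CPM.

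EXOSC6, a core subunit of the RNA exosome, was the 1 of 22 exosome and TRAMP genes that differed, at 73.2 ± 6.79 CPM with RBI2 and 56.6 ± 5.52 CPM with CX-5461 (0.37 ± 0.05, 0.0017), while 17 of the 22 differences were negative. Of 85 cytosolic ribosomal protein genes, 81 had a negative difference, with a median of -0.07. The median was -0.07 at 10 min, -0.26 at 30 min and 0.10 at 120 min. No gene of 78 mitochondrial ribosomal proteins passed edgeR's test as fitted here, and 63 differences were negative, with medians of -0.07, -0.14 and 0.07 at the 3 labels. At an unadjusted p under 0.05, 11 were higher with CX-5461 and 1 with RBI2, beside 11.3% and 15.9% of all genes. The offset for GC content and length gave 7 and 1, and 2 were higher with CX-5461 under the offset for average transcript length or with DESeq2, and 0 to 3 with 1 library left out.

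Of 79 nuclear genes of oxidative phosphorylation, 76 had a negative difference (median -0.09) and 4 passed, namely SDHC (-0.21 ± 0.05, 0.025), NDUFA10 (-0.17 ± 0.05, 0.041), ATP5F1B (-0.16 ± 0.04, 0.033) and ATP5PB (-0.14 ± 0.03, 0.031). The median was -0.12 at 10 min, -0.20 at 30 min and 0.06 at 120 min. Of 37 proteasome subunits, 34 were negative (median -0.09), and PSMA2 (-0.20 ± 0.05, 0.03) and PSMD14 (-0.15 ± 0.04, 0.045) passed. With the offset for GC content and length, 18 oxidative phosphorylation genes, 10 proteasome genes and 21 cytosolic ribosomal protein genes passed with CX-5461 higher, where 8.91% of all genes did, but ATP5PB (-0.03, 0.419), PSMA2 (-0.02, 0.733) and PSMD14 (-0.05, 0.263) no longer did. With the offset for average transcript length these counts were 1, 2 and 0, and ATP5F1B stood at 0.01. Genes encoded by the mitochondrial genome had a positive difference in 25 of 30 cases (median 0.22). Their median was -0.01 at label 10 min, 0.09 at 30 min and 0.40 at 120 min, where RBI2 120 min replicate 2 held the highest mitochondrial share of the treated libraries (11.3%). MT-ND6, on the light strand, had means of 312 ± 49.6 and 241 ± 39.2 CPM with RBI2 and CX-5461 (0.37 ± 0.08, 0.015), and the tRNA genes MT-TI (0.72 ± 0.13, 0.007), MT-TS1 (0.60 ± 0.13, 0.014) and MT-TC (0.94 ± 0.26, 0.046) passed. MT-TC passed in 4 of 24 alternatives, and under the offset for GC content and length it stood at 0.54 (0.16), MT-TI at 0.43 (0.0596) and MT-TS1 at 0.11 (0.568).

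Genes of the cell cycle were called in both directions, while most differences were negative (22 of 30 mitotic and 24 of 32 replication genes). At an unadjusted p under 0.05, 2 mitotic genes were higher with RBI2 and 12 with CX-5461, and 5 and 9 replication genes (15.9% and 11.3% of all genes). With the offset for GC content and length, 0 and 11 mitotic and 1 and 9 replication genes passed (6.7% and 8.91% of all genes). With that for average transcript length, 1 and 1 mitotic and 3 and 2 replication genes passed (5.98% and 2.92% of all genes). Of 30 mitotic genes, CENPE, CENPF and DLGAP5 (-0.26 ± 0.07, 0.045) were higher with CX-5461 and the cyclin F gene CCNF with RBI2 (0.30 ± 0.06, 0.015). Of 32 replication genes, 4 were higher with CX-5461, among them the helicase subunit MCM6 (-0.30 ± 0.06, 0.0075), cyclin E1 gene CCNE1 (-0.32 ± 0.08, 0.031) and the ribonucleotide reductase gene RRM1 (-0.23 ± 0.06, 0.04), and 2 with RBI2, GINS1 (0.29 ± 0.06, 0.013) and UHRF1. Of 24 genes of homologous recombination and topoisomerases, XRCC2 (0.40 ± 0.08, 0.0093) and TOP3A (0.28 ± 0.06, 0.013) were higher with RBI2 and RBBP8 (-0.24 ± 0.07, 0.048) with CX-5461, while 17 of the 24 differences were negative. The counts were 1 and 4 under the offset for GC content and length (TOP3A at 0.12, 0.122) and 3 and 4 with DESeq2.

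Matrix genes had 6 of 35 members higher with RBI2. Collagen VI alpha 3, COL6A3, measured 67.4 and 87 CPM at label 10 min, 85.7 and 93.9 CPM at 30 min and 49.4 and 59.2 CPM at 120 min with RBI2. With CX-5461 it stayed between 36.6 and 44.6 CPM (0.77 ± 0.11, adjusted p = 0.0019), and the control libraries were far apart at 54.4 and 159 CPM. COL27A1 (0.45 ± 0.08, 0.0072), COL5A1 (0.36 ± 0.08, 0.018) and LAMA5 (0.35 ± 0.09, 0.036) followed. Both of the last lost the call under each offset, at 0.15 (0.0621) and 0.15 (0.0613) for GC content and length and at 0.33 (0.0756) and 0.20 (0.224) for average transcript length. The count of 6 was 3 without CX-5461 120 min replicate 1 or RBI2 10 min replicate 2.

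Replication-dependent histone genes, whose mRNAs mostly lack a poly(A) tail, had 4 of 24 members higher with RBI2 and 1 with CX-5461, with a median of 0.24. H1-4 (1.62 ± 0.27, 0.0048), H2BC18 (1.46 ± 0.22, 0.003) and H2BC17 (1.56 ± 0.38, 0.028) had means under 5 CPM in both compounds. H4C3 was higher with CX-5461 (-1.32 ± 0.37, 0.048), a call that held in 10 of 25 alternatives. Polyadenylated and tailless forms cannot be told apart in these values.

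Glycolytic genes differed by small amounts, with PGAM1 (-0.15 ± 0.04, 0.031), PGK1 (-0.15 ± 0.04, 0.037) and LDHA (-0.11 ± 0.03, 0.042) higher with CX-5461 and the regulator PFKFB3 (0.20 ± 0.05, 0.036) with RBI2, out of 27. The direction of the count depended on the offset, with 0 higher with RBI2 and 7 with CX-5461 for GC content and length, and 3 and 0 for average transcript length. LDHA stood at -0.03 (0.454) under the former and PGAM1 at -0.05 (0.507) under the latter. MEPCE (0.27 ± 0.05, 0.0074), the capping enzyme of 7SK RNA, was higher with RBI2. SRSF5 (-0.19 ± 0.04, 0.02) was the 1 of 18 splicing factors and kinases that differed, higher with CX-5461, and lost the call under each offset (-0.09, 0.159 and -0.17, 0.157).

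Of the genes the study names, PABPC1, the cytoplasmic poly(A) binding protein, measured 1391 and 1334 CPM at label 10 min, 1287 and 1248 CPM at 30 min and 1301 and 1450 CPM at 120 min with RBI2. With CX-5461 it measured 1586 and 1542 CPM at label 10 min, 1476 and 1413 CPM at 30 min and 1495 and 1544 CPM at 120 min (-0.18 ± 0.04, adjusted p = 0.012), and it turned to 0.12 with the offset for average transcript length. ATXN2 (0.13 ± 0.05, 0.096) and the reference gene GAPDH (-0.04 ± 0.05, 0.58) did not pass. ATXN2L, the relative of ATXN2, was higher with RBI2 (0.19 ± 0.05, 0.047), a call that held in 5 of 26 alternatives (0.10, 0.0525 under the offset for GC content and length).

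The labels did not contribute alike. Tested one label at a time, with the spread shared over all 6 groups, 744 genes (4.82%) were higher with RBI2 and 318 (2.06%) with CX-5461 at 10 min, against 8 (0.0518%) and 11 (0.0712%) for label 30 min. The label 120 min gave 2143 (13.9%) and 2432 (15.7%). Only 8 of the 1334 genes passed at all 3 labels, while 252 passed at 2, 841 at 1 and 233 at none. The difference was largest at label 120 min for 825 of them, at 10 min for 342 and at 30 min for 167. The interaction of compound and label passed for 2010 genes (13%), of which 151 were among the 1353. Its count was 397 without CX-5461 10 min replicate 1, 536 without RBI2 120 min replicate 1 and 3529 without CX-5461 30 min replicate 1.

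For 22 genes the direction turned between labels by a log2 difference of at least 1 each way. The 3 described were chosen by their interaction p, which is given as a description. SFXN3, a mitochondrial serine carrier, measured 20.8 and 20.2 CPM at label 10 min, 24.6 and 18.2 CPM at 30 min and 62 and 66.7 CPM at 120 min with RBI2. Its levels with CX-5461 were 42.1 and 40.4 CPM at label 10 min, 14.8 and 18.6 CPM at 30 min and 12.4 and 10.9 CPM at 120 min (interaction adjusted p = 1.9e-05). KCNQ1OT1, the imprinted antisense RNA of the KCNQ1 locus, went from -1.31 at 10 min to 1.14 at 120 min (interaction adjusted p = 0.00011). BTAF1 went from -1.45 and 1.01 to -2.67 (0.031), with CX-5461 replicates at 4.95 and 0.786 CPM at 30 min.

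Beside the control libraries, which the main test left out, the mean control level lay between the compounds for 563 of the 1042 genes higher with RBI2, below both for 376 and above both for 103. The median difference of these genes was 0.36 for RBI2 minus control and -0.08 for CX-5461 minus control. For the 292 genes higher with CX-5461 the control lay above both for 129, between for 119 and below both for 44, with medians of -0.20 and 0.02. Both differences share the same 2 control libraries. These counts depended on the control library. With control replicate 1 alone, the first group had 599 between, 395 below and 48 above, and the second 64 above, 207 between and 21 below. With control replicate 2 alone they were 409, 438 and 195, and 160, 58 and 74. The medians were 0.33 and -0.04 for the first group and -0.16 and 0.06 for the second with replicate 1, and 0.37 and -0.08, and -0.26 and -0.04, with replicate 2.

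The genes higher with each compound differed in properties that were not terms of the test. Transcripts of genes higher with RBI2 had a median length of 4557 bases and a GC content of 52.4%, against 2603 bases and 48.1% over all genes and 2657 bases and 42.8% for genes higher with CX-5461. With genes cut into 5 bins of equal size, 16.6% of the longest were higher with RBI2, and 2.30% of the shortest. Of the bin with the lowest GC content, 3.43% were higher with CX-5461, and of the highest 0.356%. Median differences over the bins depended on the label. From lowest to highest GC content they went from 0.03 to -0.08 at 10 min, -0.02 to 0.01 at 30 min and -0.29 to 0.25 at 120 min. From shortest to longest they went from -0.08 to 0.10, -0.11 to 0.10 and 0.10 to -0.02 at these labels. Long noncoding RNAs made up 19.6% (204) of the genes higher with RBI2 and 0.342% (1) of those higher with CX-5461, beside 14.2% of all genes tested. Chromosome 19 held 10.7%, 2.74% and 7.23% in the same order. The median level was 24.7 CPM for genes higher with RBI2, 57.7 CPM for those higher with CX-5461 and 17.6 CPM over all genes. A gene with more reads can pass with a smaller difference, and the part of level in these shares was not tested. The part of length and GC content in the differences was not tested beyond the offsets.

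**Figure D5:**
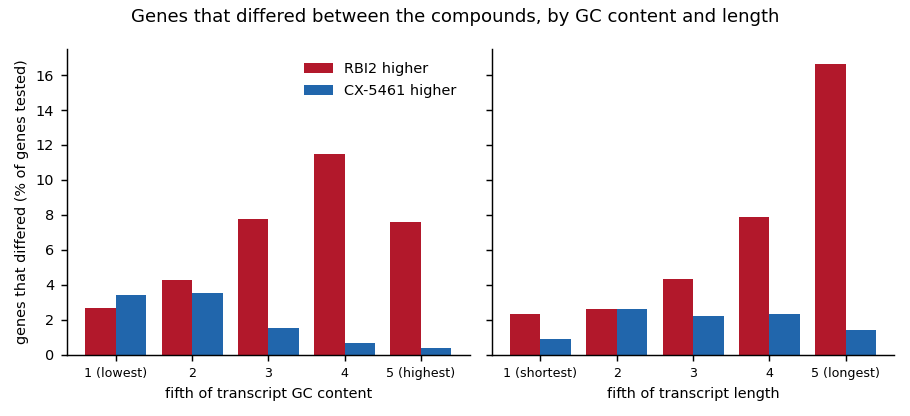
Genes that differed with one sign at every label, as a percent of the genes tested in each of 5 equal bins of transcript GC content (left) and transcript length (right), for RBI2 higher and CX-5461 higher. Bars start at 0. The share with RBI2 higher rises from 2.30% in the shortest to 16.6% in the longest bin, and the share with CX-5461 higher is 3.43% in the bin of lowest GC content and 0.356% in the highest.

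Of the 110 genes named by the rule, 105 differed, and 103 of these kept their direction under every alternative that tested them (the exceptions were PABPC1 and ATP5F1B). There were 26 alternatives, and 13 of the 110 genes were tested in 24 or 25 of them. The call held under all 26 for 15 genes, and under 25 of 25 for H2BC18 and ZNF460. The 15 were RN7SL1, RN7SL2, MIR23AHG, IRGQ, POM121, FOXK1, NPIPB4 and ZNF543 of the leading genes higher with RBI2, CCDC186, EEA1 and SLK of those higher with CX-5461, and NOL9, GNL3L, EXOSC6 and KMT2D of the lists. The call was lost by 25 of the 105 with the offset for GC content and length, by 29 with the offset for average transcript length and by 68 without the time term. Those lost under the first and not mentioned above include CA2, FAS, PGK1, PFKFB3 and CCNF, and under the second HLA-J, FAS, HSPD1, PGK1, LDHA, RRM1, RBBP8, MT-TC, SDHC, NDUFA10, H4C3 and SNHG20. The call was lost in more alternatives than it held in for 24 genes. Among them were NDUFC2-KCTD14, JUN, IER2, FAS, PPM1D, CEBPG, HSPD1, PFKFB3, PGK1, LDHA, DLGAP5, RRM1, RBBP8, NDUFA10, PSMD14, ZNF573 and LAMA5. Lists with few calls rested on single libraries. Over the 12 libraries left out in turn, MAPK feedback genes higher with RBI2 numbered 1 to 3, histone genes 2 to 5 and ribosome biogenesis factors 2 to 4. Genes higher with CX-5461 numbered 1 to 3 for the integrated stress response, 0 to 5 for oxidative phosphorylation, 0 to 4 for the proteasome, 1 to 5 for replication, 0 to 3 for glycolysis and 1 to 5 for ribosome biogenesis. Under the offset for GC content and length, the counts higher with RBI2 and with CX-5461 were 10 and 1 for small nucleolar RNA hosts, 4 and 1 for matrix genes, 5 and 1 for heat shock genes, 0 and 5 for the integrated stress response, 2 and 4 for p53 targets and 1 and 3 for exosome genes. Those under the offset for average transcript length were 4 and 0, 3 and 0, 3 and 1, 1 and 3, 1 and 2, and 1 and 1 in the same order.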

How the data were processed

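The authors removed reads of the human rDNA and quantified 14 libraries on GRCh38 transcripts with Salmon (1.3.0 in the submitters' notes). The deposited values are estimated counts and TPM per transcript. The deposited TPM values were not tested. Estimated counts were summed per gene (GENCODE release 44, 225662 of 228754 transcripts matched, 1.03 to 1.13% of reads left out) and rounded.

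The 12 treated libraries were fitted in edgeR 4.0.16 (R 4.3.3) with compound and time label as additive terms, TMM scaling and filterByExpr (minimum count 10), which kept 15442 genes. The common coefficient of variation was 11.0%. On simulated data of 15012 genes this fit recovered 94 of 100 genes changed by a log2 of 0.5 and 100 of 100 changed by 1, and called 6 unchanged genes. The simulation gave every gene that one coefficient of variation, and changed genes had at least 5 CPM. No simulated difference depended on the label, while 13% of the genes tested passed the interaction test. These numbers check the fit and are not its error rates on the real libraries.

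Named genes were (1) in each direction the 14 largest differences among genes with an official symbol, an adjusted p under 0.05, no overlap at any label and at least 5 CPM on average in the compound where they were higher, (2) up to 4 members of each of 32 lists that passed with one sign at every label, (3) up to 4 genes with the smallest interaction p among those that differed by at least 1 in opposite directions at different labels, with a mean of at least 5 CPM, and (4) PABPC1, ATXN2 and GAPDH. Some of them are not reported here. The comparison, members and lists were chosen with earlier results of these data known. Library properties were compared by an exact permutation test within labels. Alternatives were DESeq2 1.42.0, its size factors, other filters and thresholds, offsets for length and GC content, a replicate block, no time term, all 14 libraries, mitochondrial genes left out, and each label or library left out.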

Additional observations from a re-analysis of the deposited data

Results flagged for a closer look

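Of 228 sets of 6 libraries checked for one library far from the others (110 named genes and 4 library properties for each compound), 9 stood out by Dixon's criterion, and chance alone flags about 1 in 20. In CX-5461 120 min replicate 2, MUC4 read 6.63 CPM beside at most 4.06 CPM in the other 5, NPIPB4 6.41 beside 4.42, CENPF 597 beside 428 and ZNF221 2.47 beside 1.10. In RBI2 10 min replicate 1, NDUFC2-KCTD14 read 26.4 CPM beside 5.49 and SMAD6 5.65 beside 3.85. NDUFC2-KCTD14 read 3.99 CPM in CX-5461 10 min replicate 2 beside 0.162. HSPD1 was lowest in CX-5461 30 min replicate 2, at 1344 CPM beside at least 1458 CPM in the others. CX-5461 120 min replicate 1 held the most reads, 24849354, beside at most 18426950 in the others.

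The difference between RBI2 and CX-5461 depended on the label for 37 of the 110 named genes, by edgeR's test of the interaction with Benjamini-Hochberg adjustment over all genes, which 13% of all genes passed. Among leading genes the adjusted p was 0.0078 for RN7SL2, 0.016 for RN7SL1, 0.0082 for MIR23AHG, 5.6e-05 for MIR222HG, 3.2e-05 for ID2, 0.035 for RYK, 0.011 for GCH1, 0.03 for CA2 and 0.038 for DDIT4. In early response and stress genes it was 0.0012 for KLF6, 0.009 for FOS, 0.00014 for IER2, 0.00011 for JUN, 0.00029 for DUSP1, 0.012 for SPRY4, 0.0078 for LIF, 0.0082 for HBEGF, 0.0003 for GADD45A, 0.039 for CEBPG, 0.0035 for DNAJB1 and 0.032 for HSPD1. Host genes of small nucleolar RNAs gave 0.0098 (SNHG4), 0.00087 (SNHG3) and 0.0065 (SNHG17). Further values were 0.021 for TCOF1, 0.021 for CCNF, 0.03 for MCM6, 0.027 for RRM1, 0.043 for ATXN2L, 0.042 for MT-ND6, 0.034 for H1-4, 0.0061 for H4C3 and 0.013 for COL27A1. Genes that turned direction, chosen by this p and so given as a description, gave 1.9e-05 (SFXN3), 0.00011 (KCNQ1OT1) and 0.031 (BTAF1).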

How the results depend on the processing

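The replicate numbers did not pair the samples uniformly: deviations of same-numbered libraries correlated over 0.1 in 3 of 15 pairs of groups (-0.465 to 0.172). CX-5461 30 min correlated negatively with every other group, down to -0.465 with CX-5461 120 min. Whether the libraries pair under another numbering was not tested. With the replicate block, 150 genes were higher with CX-5461, 7 differed at label 30 min and 1229 by interaction. With the block and the GC content and length offset, 1126 were higher with CX-5461, 2018 kept one sign and 35 differed at label 30 min. With that offset alone these counts were 1406, 2410 and 62, and 1798 genes differed at label 10 min. The offset for average transcript length gave 457 genes higher with CX-5461, and 406, 6 and 2714 at labels 10, 30 and 120 min. It turned PABPC1 to 0.12, ATP5F1B to 0.0093 and GAPDH to 0.015. DESeq2 gave 719 genes higher with CX-5461 and 245 at label 30 min. Without a filter these were 1045 and 850, beside 1686 at label 10 min and 3464 by interaction. A mean of at least 5 CPM gave 50 at label 30 min and a difference of 0.0042 for KCNQ1OT1. All 14 libraries in one model gave 472, 2 and 2490 at the 3 labels. Without the time term, 295 genes were higher with RBI2, 34 with CX-5461 and 329 with one sign. Without label 10, 30 or 120 min, 669, 561 and 362 were higher with RBI2, 85, 131 and 101 with CX-5461, and 749, 687 and 460 kept one sign. A log2 limit of 1 left 134, 15 and 140. An unadjusted p gave 2462, 1738 and 3631, and 4898 by interaction. KCNQ1OT1 turned to 0.68 without label 10 min. It turned to 0.12, 0.09, 0.22 and 0.17 without CX-5461 or RBI2 10 min replicate 1 or 2. Over all libraries left out it lay from -0.21 to 0.22. The offset for GC content and length moved KCNQ1OT1 to -0.72 (adjusted p = 0.0386), and with the replicate block added it was -0.72 (0.054). SFXN3 turned to -0.36 without label 120 min. Leaving out 1 library gave 448 to 984 genes higher with RBI2, 78 to 631 with CX-5461, 525 to 1566 with one sign, 397 to 3529 by interaction, and 405 to 1249, 3 to 75 and 2428 to 5035 at the 3 labels. The difference in library totals was -2853240 to -596225 reads and that in mitochondrial share 0.281 to 0.918 percentage points. The causes were not tested. With 2 libraries per group and totals from 14112299 reads, genes of a few CPM carry wide errors. The DESeq2 likelihood ratio test gave 1893 genes with an interaction.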
